A study of Mus musculus with 11 samples.

Results

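These results concern 3870 of the 26602 SA1 peaks of wild-type mouse embryonic fibroblasts (MEFs), a share of 14.5% (95% Wilson interval 14.1 to 15.0%). At each of them a ring subunit of cohesin, SMC1 or SMC3, had a peak in SA1-null cells, and neither had one in wild-type cells. They also had no SA2 peak in either genotype. They are called null-only positions here. They were chosen from the measured peak lists by overlap of at least 1 bp: an SA1 peak was kept if it overlapped an SA1-null SMC1 or SMC3 interval and no interval of the wild-type SMC1, wild-type SMC3, wild-type SA2 or SA1-null SA2 list. The presence or absence of those peaks is therefore a description of the choice and not a finding.

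The cells were untreated primary MEFs from E12.5 embryos of a C57BL/6 x 129 Sv background, either wild type or SA1-null. Chromatin immunoprecipitation and sequencing (ChIP-seq) was done with antibodies to SA1, SA2, SMC1 and SMC3 in both genotypes, and 2 input DNA libraries were pooled over both. The labels give 1 sample per antibody and genotype, except for SMC1 in SA1-null cells, where 2 replicates share 1 list. They do not say which embryos or cultures the samples came from, nor what SA1 allele the null cells carry. Each list holds the chromosome, start and end of its peaks and nothing else, so peak height and sequencing depth are unknown.

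Cohesin is a ring built from SMC1, SMC3 and a kleisin subunit, which encircles DNA, holds sister chromatids together and takes part in folding chromatin into loops. In somatic vertebrate cells each ring carries either SA1 or SA2, 2 related proteins that attach to the kleisin. In mammalian chromatin much of cohesin is found where the DNA-binding protein CTCF sits. An SA1 peak without a ring peak in the same cells is thus a position where one part of the complex was called and the others were not.

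The lists that define the null-only positions differed in length. For wild-type cells they held 24000 SMC1, 15564 SMC3 and 7741 SA2 intervals, and for SA1-null cells 47003, 34802 and 6352 in that order. Of all 26602 SA1 peaks, 82.9% had an SA1-null SMC1 or SMC3 interval. Besides the null-only positions, 10421 SA1 peaks had a wild-type ring peak and no SA2 peak, 8262 had an SA2 peak in either genotype, and 4049 had none of the other subunits in either genotype. These 4 classes make up the whole SA1 list. A position that has no peak in a list may still carry the protein below the level that was called.

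Among SA1 peaks with neither a wild-type ring peak nor an SA2 peak, 3870 of 7919 (48.9%, interval 47.8 to 50%) had a ring peak in SA1-null cells. The reverse pattern, a ring peak in wild-type cells alone and no SA2, was found at 189 SA1 peaks, or 1.81% (interval 1.57 to 2.09%) of those with a wild-type ring peak and no SA2. The first share is taken of peaks without a wild-type ring and the second of peaks with one, so they are not mirror images. The null-only positions outnumbered those with the reverse pattern 20.5 to 1 in the lists as deposited. This ratio did not hold under another treatment of the lists. With the SA1-null SMC1 and SMC3 lists cut to the wild-type length by keeping their widest intervals, 1317 null-only positions remained, all of them among the 3870. The reverse pattern then held at 3329 SA1 peaks, a ratio of 0.396. That setting changes length and selects by width at once, so the part of each cannot be told apart. The direction of the imbalance between the genotypes was not the same in the full and the shortened lists, and with 1 list per group there is no replicate spread to set it against.

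SMC1 was called at more of the null-only positions than SMC3. An SA1-null SMC1 peak lay at 3418 of them (88.3%, interval 87.3 to 89.3%), against 80.4% of all SA1 peaks, and an SA1-null SMC3 peak at 2561 (66.2%, interval 64.7 to 67.6%), against 75.7% of all SA1 peaks. Both subunits were called at 2109 positions (54.5%, interval 52.9 to 56.1%), against 73.3% of all SA1 peaks, SMC1 alone at 1309 (33.8%, interval 32.4 to 35.3%) and SMC3 alone at 452 (11.7%, interval 10.7 to 12.7%). The rule required a peak of one of these 2 lists, so nothing is read from these shares against the background. For description, at SA1 peaks with a wild-type ring peak and no SA2 both SA1-null subunits were called in 93.3% of cases (interval 92.8 to 93.8%), SMC1 alone in 3.70% and SMC3 alone in 1.16%. The division changed with the lists used, and in each shortened list length and width selection changed together. With both SA1-null lists shortened by width to the wild-type length, 32.7% of the 1317 positions left had both subunits, 50.8% SMC1 alone and 16.5% SMC3 alone. With the SA1-null SMC1 list alone shortened by width to the 34802 intervals of the SMC3 list, 18.7% of the then 3150 null-only positions had SMC1 alone and 36.0% had SMC3 alone.

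Where both subunits were called, their intervals almost always overlapped each other. Both had to overlap the same SA1 peak, so this is largely set by the choice and is a description. At 2104 of the 2109 positions (99.8%) the SMC1 and SMC3 intervals of SA1-null cells overlapped each other. The SMC3 interval was the wider one at 1515 positions (71.8%), and SMC3 intervals were wider over the whole lists too, with medians of 652 bp for SMC3 and 535 bp for SMC1 in SA1-null cells.

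The ring peaks of SA1-null cells were centred on the SA1 peaks of wild-type cells. The centres of the SA1 and the SMC1 interval lay 54.0 bp apart in the median (exact order-statistic 95% interval 51.5 to 56.5 bp, n = 3418), and 77.4% of pairs lay within 100 bp (interval 76.0 to 78.8%). For SMC3 the median was 55.5 bp (interval 53.0 to 58.0 bp, n = 2561), with 77.1% of pairs within 100 bp. The rule asked for 1 bp of overlap, but the overlap reached 50% of the shorter interval for 98.4% of the SMC1 and 98.1% of the SMC3 pairs. One interval lay wholly inside the other in 52.3% of the SMC1 pairs.

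In the full lists the match was slightly looser than at SA1 positions that had a ring peak in wild-type cells. There the SA1-null SMC1 centre lay at a median of 49.5 bp (interval 48.5 to 50.5 bp, n = 10111). The SMC3 centre there lay at 49.0 bp (interval 47.5 to 50 bp, n = 9846). The share within 100 bp was 80.4% (interval 79.6 to 81.1%) for SMC1 and 81.2% (interval 80.4 to 82.0%) for SMC3. The difference was larger in the tail. For SMC1 the 95th percentile of the centre distance was 235.2 bp at null-only positions and 188.2 bp at the others. For SMC3 it was 277.5 and 191.2 bp. Positions with both subunits, SMC1 alone and SMC3 alone had similar medians in this measure. To the SMC1 centre they were 53.5 bp for both and 55.5 bp for SMC1 alone. To the SMC3 centre they were 55.5 bp for both and 56.0 bp for SMC3 alone. Peaks within a list are not replicates, so the intervals of these medians and shares describe the lists only. The rule used the same SA1 and ring intervals, so centre distance is not wholly independent of it. Centre distances are given here for the full lists only, and whether the looser match holds in the shortened lists was not tested.

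**Figure D1:**
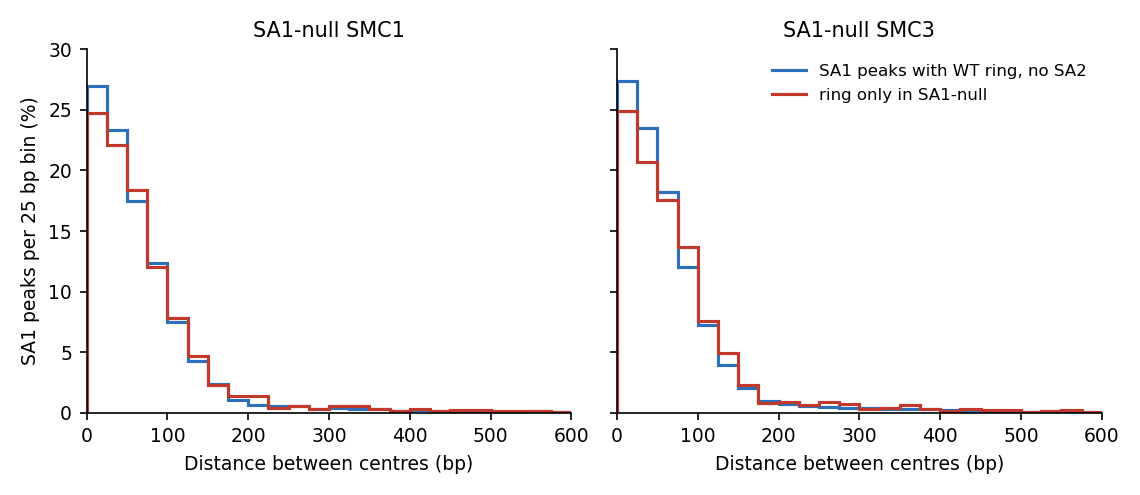
Distance in bp between the centre of a wild-type SA1 peak and the centre of the SA1-null SMC1 (left) or SMC3 (right) interval that overlaps it most, as the percentage of SA1 peaks per 25 bp bin, for null-only positions (red) and for SA1 peaks with a wild-type ring peak and no SA2 (blue). Both classes pile up below 100 bp, with 77.4% of null-only positions and 80.4% of the others within that distance for SMC1.

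Null-only positions had narrower SA1 peaks than the positions with a wild-type ring, and wider ones than SA1 peaks without any other subunit. Their median SA1 width was 477 bp (interval 471 to 481 bp), between 531 bp (interval 528 to 534 bp) where a wild-type ring peak was present without SA2 and 435 bp (interval 430 to 439 bp) where no other subunit was called. SA1 peaks with SA2 were the widest class, at 614 bp (interval 611 to 618 bp). The difference from the first of these classes was -54.0 bp and lay between -79.0 and -26.0 bp on the 19 autosomes (mean -55.6 ± 15.9, SD, n = 19 autosomes), and null-only positions were narrower on all 19. With both SA1-null lists shortened by width it was -24.0 bp, and 1 SD over autosomes on either side ran from -50.8 to 2.83 bp. The difference from peaks with no other subunit was 42.0 bp, with a mean of 42.0 ± 14.2 bp (SD, n = 19 autosomes), and null-only positions were wider on all 19. Autosomes are parts of 1 library and not replicates, so this spread describes the list only. A wider interval also meets others more easily, so width is not wholly independent of the rule.

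Within the null-only positions the SA1 peaks were somewhat wider where both subunits were called. The median was 485 bp (interval 479 to 494 bp) with both subunits, 463 bp (interval 455 to 474 bp) with SMC1 alone and 466 bp (interval 450 to 481 bp) with SMC3 alone. Positions with both were wider than those with SMC1 alone on 17 of 19 autosomes, by 20.5 ± 18.4 bp (mean and SD). The intervals of SMC1 alone and SMC3 alone overlapped. The individual SA1 peaks ranged from 206 to 2609 bp, with 5th and 95th percentiles of 303.5 and 710.5 bp.

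**Figure D2:**
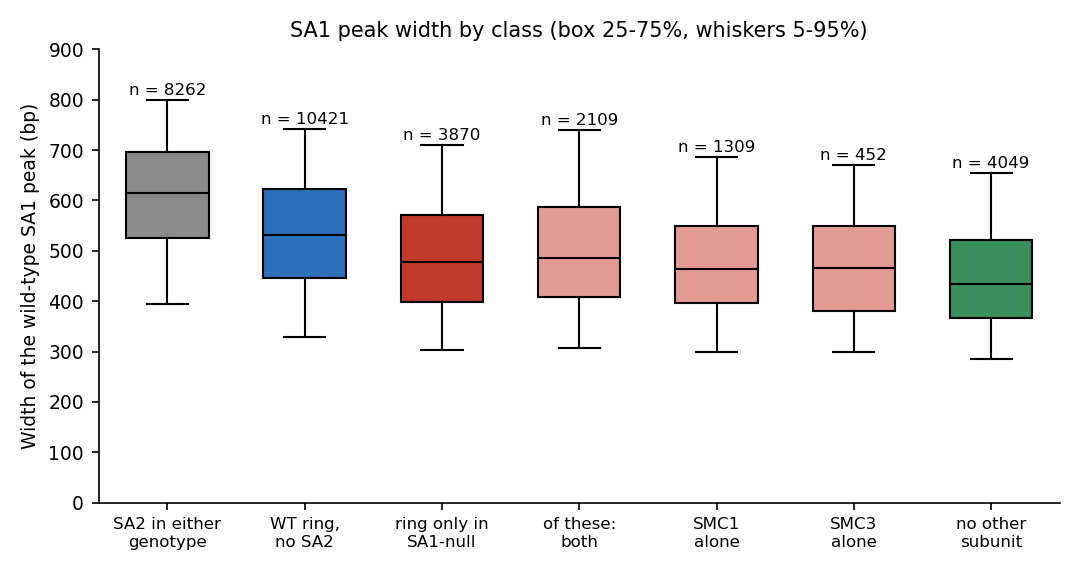
Width in bp of the wild-type SA1 peak in each class (box, 25th to 75th percentile with the median as a line, whiskers, 5th to 95th percentile, n above each box). The null-only positions (red, with their 3 subdivisions in light red) have a median of 477 bp, between the 531 bp of peaks with a wild-type ring and no SA2 (blue) and the 435 bp of peaks with no other subunit (green).

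The ring peaks themselves were narrow at the null-only positions. The 3431 SA1-null SMC1 intervals there had a median width of 462 bp (interval 455 to 468 bp), against 566 bp (interval 562 to 570 bp) at SA1 peaks with a wild-type ring and no SA2, and were narrower on all 19 autosomes (difference -106.1 ± 15.3 bp, mean and SD over autosomes). The 2556 SMC3 intervals had a median of 570 bp (interval 563 to 577 bp), against 670 bp (interval 667 to 674 bp), again narrower on all 19 (-100.7 ± 20.2 bp). They stood at the 33.0 and 30.3 percentile of width in the median within their own lists, against 57.3 and 54.6 at the other class. With both SA1-null lists shortened by width these differences became -13.0 bp for SMC1, with 1 SD over autosomes on either side running from -35.6 to 9.64 bp, and 27.5 bp for SMC3, from -8.47 to 63.5 bp. The sign for SMC3 reversed, with a spread that includes 0.

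The same intervals were also narrower than SA1-null ring peaks away from SA1. SMC1 intervals that overlapped no SA1 peak and no wild-type SMC1 peak had a median of 484 bp (interval 481 to 487 bp, n = 20261), and the difference from null-only positions was -21.9 ± 12.1 bp over the autosomes, negative on all 19. For SMC3 the median away from SA1 and from wild-type SMC3 was 605 bp (interval 601 to 609 bp, n = 12931), and the difference was -35.5 ± 14.2 bp, negative on all 19. Unlike the null-only positions, these comparison sets were not cleared of SA2 peaks or of peaks of the other wild-type ring subunit. These differences are given here for the full lists only. At null-only positions an SMC1 interval was wider where SMC3 was called too, at 496 bp (interval 487 to 503 bp) against 416 bp (interval 407 to 423 bp) for SMC1 alone. Likewise an SMC3 interval measured 585 bp (interval 575 to 592 bp) where SMC1 was called too and 507.5 bp (interval 493 to 529 bp) where it was not.

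Part of the ring peaks that SA1-null cells had at SA1 positions and wild-type cells lacked lay at the null-only positions. Of 4272 SA1-null SMC1 intervals that lay at an SA1 peak and had no wild-type SMC1 partner, 3385 (79.2%, interval 78.0 to 80.4%) lay at null-only positions. Of 6880 such SMC3 intervals, 2531 (36.8%, interval 35.7 to 37.9%) did, while 3017 lay at SA1 peaks with a wild-type ring peak and no SA2. The wild-type SMC3 list, with 15564 intervals, was the shortest of the ring lists. These counts come from the lists that the rule used: of the 10421 SA1 peaks with a wild-type ring peak and no SA2, 10077 had wild-type SMC1 and 6912 had wild-type SMC3, so both shares are largely set by the classes and are a description.

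The share of null-only positions moved with SA1 width in opposite directions, depending on the peaks it was taken of. Of all SA1 peaks it was 21.5% (interval 20.0 to 23.1%) in the narrowest of 10 width classes, up to 361 bp, and 6.99% (interval 6.08 to 8.02%) in the widest, from 715 bp upward. Wide SA1 peaks mostly had a wild-type ring or SA2 and could not enter. Among the SA1 peaks that had neither, the share with a ring peak in SA1-null cells was 38.0% (interval 35.6 to 40.5%) in the narrowest class and 67.6% (interval 61.9 to 72.9%) in the widest. The share of null-only positions with both ring subunits was also higher in wide peaks, at 50% (interval 45.9 to 54.1%) in the narrowest class and 66.1% (interval 59.1 to 72.5%) in the widest. All these shares rest on the lists that the rule used and are given here for the full lists only.

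Among SA1 peaks without wild-type ring or SA2, the null-only share also differed with the number of other SA1 peaks nearby. SA1 peaks were divided into 5 classes by the number of other SA1 peaks within 500 kb on either side. Of those without wild-type ring or SA2, 36.3% (interval 34.3 to 38.3%) were null-only in the sparsest class, with 0 to 9 neighbours, and 60.5% (interval 57.7 to 63.2%) in the densest, with 20 to 42. As a share of all SA1 peaks the null-only positions made up between 13.3 and 15.5% over the 5 classes. From the sparsest to the densest class, peaks with no other subunit went from 25.9 to 9.08% and those with a wild-type ring and no SA2 from 30.8 to 45.9%. The share differed with width and with density also when the other was held to one side of its median, 454 bp and 13 neighbours. Among peaks up to that width it was 35.7% (interval 33.7 to 37.7%) in sparse and 49.6% (interval 47.3 to 51.9%) in dense surroundings. Among wider ones it was 50.2% (interval 48.1 to 52.3%) and 62.8% (interval 60.5 to 65.0%). Width and density still varied within each side of the medians. The share rests on the SA1-null ring lists that the rule used and is given here for the full lists only.

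**Figure D3:**
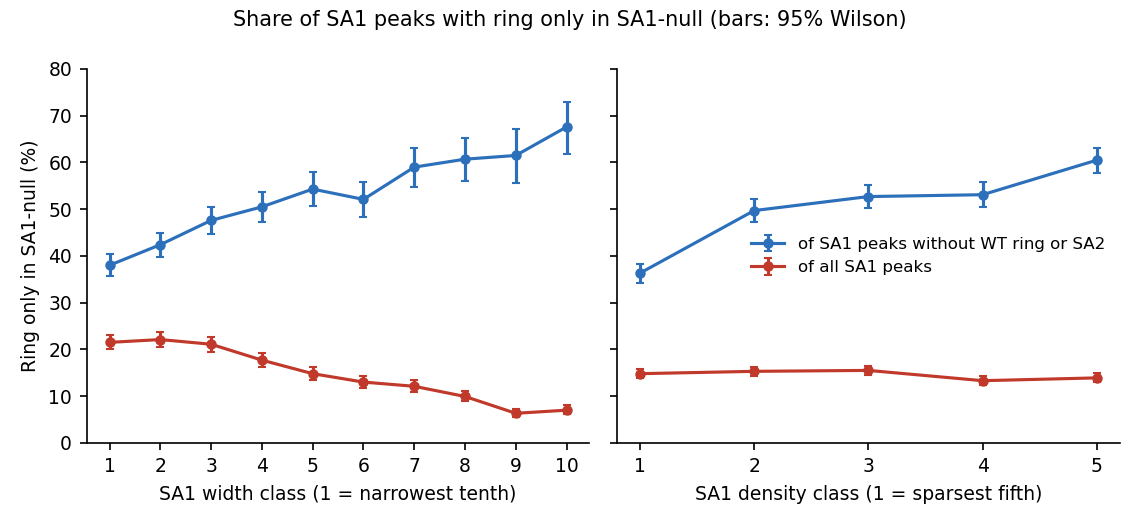
Percentage of null-only positions by class of SA1 width (left, 10 classes from the narrowest) and by class of SA1 density (right, 5 classes from the sparsest), among all SA1 peaks (red) and among SA1 peaks without a wild-type ring or SA2 peak (blue), with 95% Wilson intervals. The blue line goes from 38.0 to 67.6% with width and from 36.3 to 60.5% with density, while the red line goes from 21.5 to 6.99% with width and stays between 13.3 and 15.5% with density.

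The distance from null-only positions to the nearest ring peak of wild-type cells varied widely. The nearest wild-type SMC1 or SMC3 interval was 19475 bp away in the median (interval 18278 to 20644 bp), with quartiles of 5192 and 54671.5 bp. At 184 positions (4.75%, interval 4.13 to 5.47%) it lay within 500 bp and at 313 (8.09%, interval 7.27 to 8.99%) within 1000 bp. It lay within 10000 bp at 1371 (35.4%, interval 33.9 to 36.9%). For scale, the nearest other SA1 peak was 16761.5 bp from a null-only position in the median and 22608 bp from a peak with no other subunit. SA1 peaks with no other subunit were farther from wild-type ring peaks, at a median of 33641 bp (interval 31620 to 36335 bp), with 4.64% within 1000 bp (interval 4.04 to 5.34%). The nearest SA2 interval of either genotype was 54173.5 bp from a null-only position in the median (interval 51016 to 57115 bp) and 68807 bp from a peak with no other subunit (interval 65216 to 72276 bp). The rule kept overlapping peaks of these lists out of both classes, so only distances above 0 were possible.

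**Figure D4:**
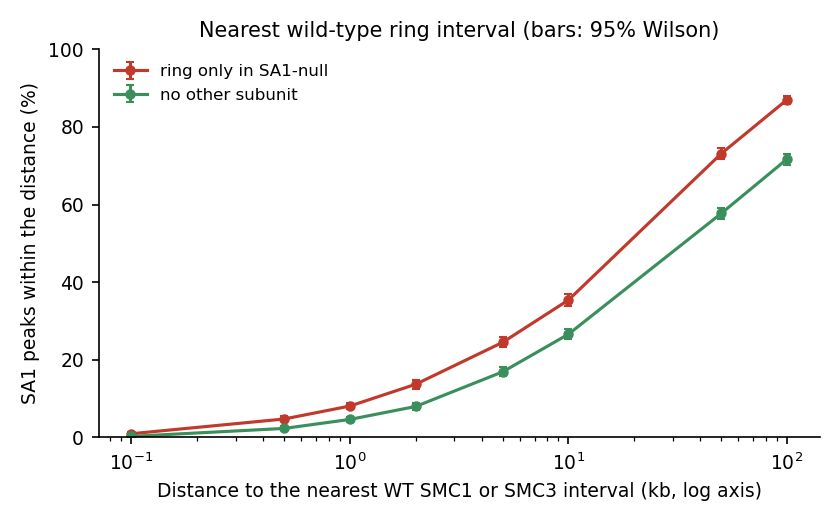
Percentage of SA1 peaks with a wild-type SMC1 or SMC3 interval within a given distance (kb, log axis), for null-only positions (red) and SA1 peaks with no other subunit (green), with 95% Wilson intervals. At 10 kb the shares are 35.4% and 26.6%, and at 100 kb 87.0% and 71.7%.

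Few null-only positions were the flank of a wild-type ring peak. At 81 of 3870 (2.09%, interval 1.69 to 2.59%) the SA1-null ring interval that overlapped the SA1 peak also reached a wild-type ring interval beside it. Leaving such ring intervals out gave 3823 positions. Just inside the rule, 30 positions had a longest ring overlap of at most 100 bp, with SA1 widths of 278 to 863 bp, and 44 had an interval of an excluded list within 100 bp. Just outside it, 38 SA1 peaks with no other subunit had an SA1-null ring interval within 100 bp, and 20 SA1 peaks with an SA1-null ring interval and no SA2 were kept out by a wild-type ring overlap of at most 100 bp.

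The SA1 peaks beside null-only positions were mostly of other classes, which make up 85.5% of all SA1 peaks. The nearest SA1 neighbour was 16761.5 bp away in the median (interval 15604 to 18163 bp), against 15366 bp (interval 14749 to 16045 bp) for SA1 peaks with a wild-type ring and no SA2 and 22608 bp (interval 21173 to 24551 bp) for those with no other subunit. That neighbour had a wild-type ring and no SA2 in 37.9% of cases, SA2 in 29.6%, no other subunit in 15.4% and was itself null-only in 17.1% (interval 16.0 to 18.3%). Null-only positions make up 14.5% of SA1 peaks, and they were the nearest neighbour of 13.8% (interval 13.1 to 14.4%) of SA1 peaks with a wild-type ring and no SA2. SA1 peaks with no other subunit showed more of a tendency to lie side by side, with 24.9% (interval 23.6 to 26.3%) next to one of their own class, which makes up 15.2% of SA1 peaks. Counted along the chromosome, 2653 null-only positions stood singly among other SA1 peaks, and 431 runs held 2 in a row. The number to be expected from their 14.5% share was not computed, so these counts do not show that the positions are scattered.

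A few stretches held more. The longest run was 6 consecutive null-only positions on chromosome 4 from 81228162 to 82150921 (mm9), of which 5 had both ring subunits. A run of 5 lay within 26.5 kb on chromosome 6 from 144945774 to 144972225, and 2 of those had both subunits. Another run of 5 lay on chromosome 9 from 70054866 to 70264633, with both subunits at 3. That run falls into one of the fullest 1 Mb windows, from 70000001 to 71000000, where 11 of 20 SA1 peaks (55.0%) were null-only. The fullest window was on chromosome 2 from 117000001 to 118000000, with 13 null-only positions among 38 SA1 peaks (34.2%). Of 2412 windows with an SA1 peak, 689 (28.6%) had no null-only position and 687 (28.5%) had 1. These runs and windows were singled out after their values were seen.

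Every chromosome in the lists held null-only positions, in similar proportion. On the 19 autosomes they made up 14.4% ± 1.24 (mean and SD) of SA1 peaks, from 12.7% on chromosome 19 to 17.1% on chromosome 13. Of the autosomal SA1 peaks without wild-type ring or SA2 the share was 49.2% ± 4.30, from 42.1% on chromosome 12 to 56.6% on chromosome 11. The share with both ring subunits was 54.5% ± 2.83. Along the autosomes, in 5 parts from the first to the last peak, the null-only share of SA1 peaks stayed between 13.8 and 14.9%.

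Chromosome X had the highest share in one measure and lay among the autosomes in the other. Of its 765 SA1 peaks 142 were null-only (18.6%, interval 16.0 to 21.5%), more than on any autosome. The interval overlapped that of the highest autosome, chromosome 13, at 17.1% (interval 15.1 to 19.3%). SA1 peaks with no other subunit were also frequent on X, at 23.0% of its SA1 peaks against 15.0% ± 2.37 on autosomes, and 4.35% of that class lay on X. Of all null-only positions 3.67% lay on X, against 2.88% of all SA1 peaks and 2.74% of the other SA1 peaks, a difference of 0.929 percentage points (95% Newcombe interval 0.338 to 1.60). Against the class with no other subunit the difference was -0.678 points (interval -1.54 to 0.190). SA2 peaks were less frequent at SA1 positions on X, at 17.4% against 31.4% ± 1.84 on autosomes. The rule takes only SA1 peaks without SA2, and whether this bears on the X share was not tested. Among X peaks without wild-type ring or SA2 the null-only share was 44.7%, against 49.0% on all autosomes together, and the difference of -4.39 points had an interval from -9.88 to 1.22. Peaks were narrower on X, with SMC1 and SMC3 medians of 463 and 587 bp in SA1-null cells, against 537.3 ± 9.0 and 655.4 ± 11.0 bp on autosomes (mean and SD). With the SA1-null lists shortened by width the X difference reversed to -1.19 points, with a wholly negative Newcombe interval of -1.81 to -0.304. The sex of the embryos is not in the labels.

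**Figure D5:**
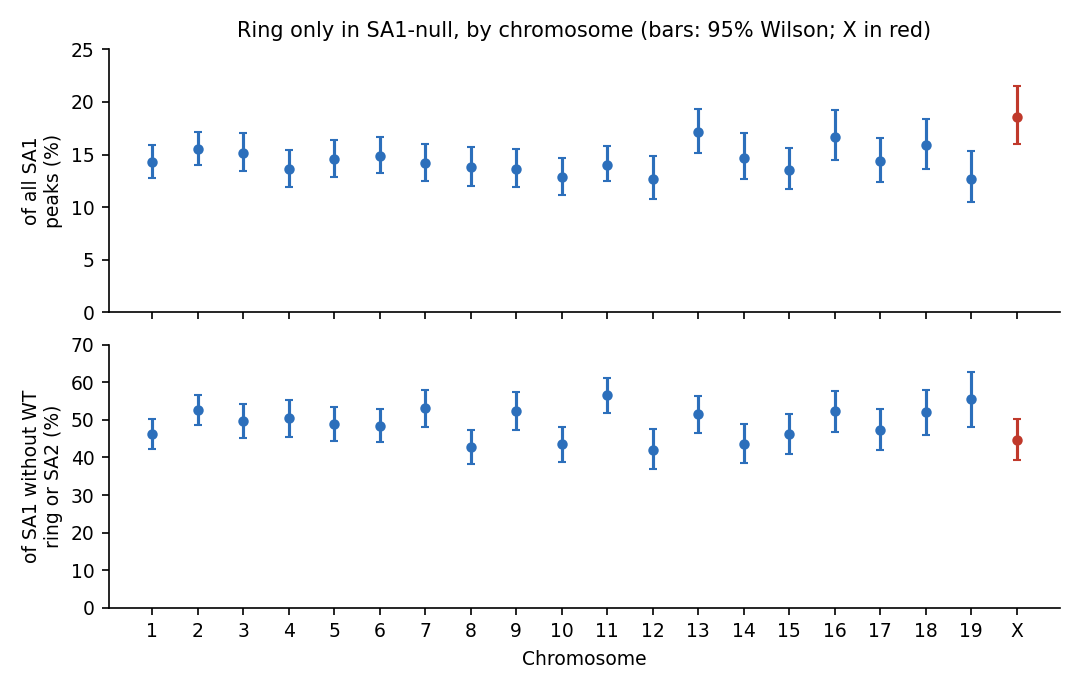
Percentage of null-only positions on each chromosome among all SA1 peaks (top) and among SA1 peaks without a wild-type ring or SA2 peak (bottom), with 95% Wilson intervals. Chromosome X (red) is the highest point in the top panel, at 18.6%, and lies within the range of the autosomes in the bottom panel, at 44.7%.

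Almost none of the null-only positions lay in regions that were called without antibody or without the antigen. In the SA1-null SA1 list, which has 177 intervals in cells that lack the protein, 0 of 3870 had an overlap, which allows a share of up to 0.0775% (3 counts of the total; the Wilson upper limit is 0.0992%). Of all SA1 peaks 0.0451% had one. The 436 intervals of the input that served the SA lists met 1 null-only position, against 0.0376% of all SA1 peaks. The 417 intervals of the input that served the SMC lists met 4 (0.103%, interval 0.0402 to 0.265%), against 0.184% of all SA1 peaks. These limits and intervals cover the counting of peaks alone, and lists this short could not have met many positions.

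The widest examples were as follows. Positions with both subunits were ranked by the mean percentile of the SA1, SMC1 and SMC3 widths, each within its own list (mm9, counted from 1). The 2 highest were an SA1 peak of 2000 bp on chromosome 10 from 36858029 to 36860028, with SMC1 over 3464 bp and SMC3 over 3859 bp, and one of 1589 bp on chromosome 16 from 14706101 to 14707689, with SMC1 over 2555 bp and SMC3 over 2279 bp. Both were broad, and their ring intervals ran on beyond the SA1 peak and reached a wild-type ring interval. The nearest one lay 354 and 176 bp from the SA1 peak. The third and the fourth lay close together on chromosome 18, from 55146117 to 55146982 and from 55148999 to 55149835, with SMC1 intervals of 2657 and 2457 bp. Their SMC1 centres lay 939.5 and 988 bp from that of SA1. Their ring intervals also reached a wild-type one, and the nearest lay 532 and 53 bp from the SA1 peak.

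The next ones were isolated. On chromosome 10 from 37322381 to 37323866 an SA1 peak of 1486 bp was matched by SMC1 over 1259 bp and SMC3 over 1482 bp, with centres 76.5 and 63.0 bp from that of SA1 and the nearest wild-type ring interval 30776 bp away. On chromosome 7 from 79779452 to 79780629 the SA1, SMC1 and SMC3 intervals measured 1178, 1213 and 1578 bp, the centres were 0.50 and 20.0 bp from that of SA1, and the nearest wild-type ring interval was 97136 bp away. Of this kind was also the ninth, on chromosome 6 from 117444787 to 117445576, with 45558 bp to the nearest wild-type ring interval. The seventh, the eighth and the last of the 10, on chromosome 2 from 44965377 to 44966238, chromosome 13 from 6192167 to 6193277 and chromosome 15 from 26823612 to 26824473, had a wild-type ring interval within 103, 614 and 480 bp. In all, the ring interval reached a wild-type one at 6 of these 10, against 2.61% (interval 2.01 to 3.38%) of all 2109 positions with both subunits. The ranking by width favours broad domains, so these 10 do not stand for the rest.

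The 5 highest-ranked positions with SMC1 alone lay 8279 bp or more from any wild-type ring interval. The first was an SA1 peak of 2609 bp, the widest of all null-only positions, on chromosome 1 from 90172375 to 90174983, with SMC1 over 2087 bp. The second, on chromosome 11 from 3023644 to 3024724, overlapped an input interval. The others were on chromosome 3 from 147515795 to 147516774, chromosome 2 from 102783900 to 102784777 and chromosome 6 from 43474840 to 43475639, with SMC1 widths of 964, 931 and 966 bp and between 27922 and 128835 bp to the nearest wild-type ring interval.

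Of the 5 highest with SMC3 alone, 2 had a wild-type ring interval within 1000 bp. One was on chromosome 2 from 136940885 to 136941921, where an SMC3 interval of 1642 bp had its centre 913.5 bp from that of the SA1 peak and reached a wild-type ring interval, the nearest of which lay 168 bp from that peak. The other was on chromosome 1 from 170360250 to 170360914, at 207 bp. The remaining ones were on chromosome 1 from 82282506 to 82283184, chromosome 8 from 45406151 to 45406922 and chromosome 4 from 82149590 to 82150327. That on chromosome 4 belongs to the run of 6 named above.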

How the data were processed

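Per the labels' protocols, gel fractions of 100 to 200 bp were amplified with 14 PCR cycles. The deposited lists hold chromosome, start and end; build mm9 and CASAVA 1.7 are per the submitters' processing notes. The sources used here do not name an aligner or caller. List names give a false discovery rate of 10 and which input each was called against: one for both wild-type SA lists and SA1-null SA2, the other for the remaining lists. Printed coordinates count from 1, with starts taken as 0-based.

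Overlaps, classes and distances were computed with Python 3.11.15, numpy 2.4.6 and scipy 1.17.1 and tested on simulated data. Distances between peaks are gaps between their ends. Shares carry 95% Wilson intervals, medians exact order-statistic intervals, and differences of shares Newcombe intervals. No p-value was computed, since the rule used the lists and there is 1 list per group. Positions were named by a rule: the 10 with both ring subunits and the 5 with each alone that rank highest by mean width percentile. The positions, classes and lists were chosen with earlier results of these data known. Sequences and genes at the positions were not analysed, as no mm9 genome or annotation was used here.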

Additional observations from a re-analysis of the deposited data

Results flagged for a closer look

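The input list that served the SMC libraries, which takes no part in the choice of the positions, met 4 null-only positions (0.103%). It is listed because a list outside the choice met more than 3 positions. The interval of this share, 0.0402 to 0.265%, includes the 0.184% of all SA1 peaks that the same list met, so no difference from them is shown. The position on chromosome 11 from 3023644 to 3024724 is among the positions that overlap an input interval.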

How the results depend on the processing

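Of 84 values (9 results under up to 10 alternatives), 69 stayed within their spread, which is 1.5 times for the count, the Wilson or Newcombe interval for shares, and 1 SD over autosomes for widths; 13 moved beyond it and 2 reversed. Overlap of 50% of the shorter interval, overlap of 100 bp, widening the excluded lists by 500 bp, merging intervals closer than 1000 bp, and removing input and SA1-null SA1 intervals or chromosome X moved none of them. With the SA1-null ring lists shortened to wild-type length, 1317 positions remained. Of these 32.7% had both subunits, 50.8% SMC1 alone and 16.5% SMC3 alone. Their SA1 width differed by -24.0 bp (spread -50.8 to 2.83) from peaks with a wild-type ring and no SA2 and by 63.0 bp from those with no other subunit. The SMC1 width difference was then -13.0 bp, and reversals were seen for SMC3 width, 27.5 bp (spread -8.47 to 63.5), and for chromosome X, -1.19 points (interval -1.81 to -0.304). This setting changes length and width together, and the cause of these changes was not tested. Settings added after the data were seen were the following. Requiring both subunits gave 2109 positions and an SMC1 width difference of -70.0 bp. Shortening the SA1-null SMC1 list to the length of the SMC3 list gave 45.3% with both, 18.7% with SMC1 alone, 36.0% with SMC3 alone and an SMC1 width difference of -48.5 bp. Leaving out ring intervals that reach a wild-type one moved no value, and ring widths could not be compared under it. Alternatives that need a score were not run, since the lists hold none. No paired analysis was possible because each group has 1 list. Depth is unknown and limits every absence.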
